A study of Mus musculus with 24 samples.

Results

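Mitochondrial ribosomal proteins are the protein subunits of the ribosome inside mitochondria. They are encoded in the nucleus, made in the cytosol and imported, and in the organelle they assemble with mitochondrial rRNA into a small and a large subunit. This ribosome makes only the few respiratory chain subunits that mitochondrial DNA encodes, and the other subunits of complexes I to V come from nuclear genes, so that oxidative tissues such as muscle use both sets of transcripts to build the same complexes. The genes described here are the rows of the deposited count table whose symbol starts with Mrpl or Mrps followed by a number. They are 78 of the 24537 genes in the table, and all 78 passed the filter on low counts in both fits. A few proteins of the same ribosome carry other names, for example Dap3, and were kept as a separate list.

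RNA was sequenced from extensor digitorum longus (EDL) muscles, which consist mainly of fast-twitch myofibers, and from soleus (SOL) muscles, which are mainly slow-twitch. Cre+ denotes Acta1-Cre+/4Fhet mice and Cre- denotes Acta1-Cre-/4Fhet mice. Both carry the doxycycline-inducible OSKM cassette (Oct4, Sox2, Klf4 and c-Myc, named 4F), both were 2 months old, and both received Dox at 1 mg/ml in the drinking water, with muscles taken at 3 time points (2.5 days, 5.5 days and 8.5 days). Acta1-Cre removes a stop cassette in front of the Dox-dependent activator in myofibers, so OSKM can be induced in the myofibers of Cre+ mice, whereas RNA was taken from the whole muscle. Each of the 12 combinations of muscle, genotype and time had 2 libraries, which gives 24 libraries in all. The study describes 2 biologically independent samples for muscles treated for 2.5 or 8.5 days.

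Total counts were between 36088781 and 54679082 per library. No member had fewer than 205 counts in any library, and the highest had 10187, so that every member was well counted in every library, and the results below depend on the 2 libraries per group and on the scaling between libraries. Myc, 1 of the 4 cassette genes, reached 55.8 to 205 normalised CPM (counts scaled to the library's effective total) in Cre+ EDL at 2.5 and 8.5 days, whereas Cre- EDL had 6.12 to 8.69. In SOL the ranges were 18.3 to 41.9 and 4.78 to 6.88. At 5.5 days induction was uneven. The Cre+ EDL libraries had Myc at 10.6 and 109 and Pou5f1 at 1.44 and 39.5, against 7.3 and 8.26, and at most 0.0424, in Cre- EDL, so replicate 2 was in the range of the other days and replicate 1 was far lower. The Cre+ SOL libraries had Myc at 4.65 and 4.83 against 3.42 and 3.27, and Pou5f1 at 0.109 and 0.539 against at most 0.02. The 5.5-day values are therefore given apart. In bulk muscle, fewer cells of a type and less RNA per cell cannot be told apart. Markers of fast myofibers, defined by Myh4, Myh1, Tnnt3, Tnni2 and Atp2a1, summed to between 64695 and 95270 normalised CPM in Cre+ EDL against 118928 to 132866 in Cre- EDL at 2.5 days, and markers of endothelium to between 210 and 234 against 293 to 343, with 3 of 5 called lower in each list. The summed levels of satellite cell and Schwann cell markers were also lower without overlap at 2.5 days (22.8 to 31.7 against 33.9 to 37, and 81.3 to 132 against 147 to 259), with 0 of 4 genes called in each by edgeR, and 0 and 1 called lower by DESeq2. Gene by gene, 2 of 4 satellite cell markers had a fold change above 0, and of the 4 Schwann cell markers 3 lay below the Cre- libraries and 1 above them. At 8.5 days the fast myofiber sums overlapped (91500 to 96279 against 92428 to 140382), with 2 of 5 called lower. The sums of satellite cell markers (23.8 to 25.1 against 27.1 to 29.8) and Schwann cell markers (89.9 to 92.4 against 109 to 174) lay below those of Cre- EDL, and the sums of fibroblast markers above them (7811 to 10693 against 5689 to 7509), with 0 genes called by edgeR or DESeq2. Of the 4 satellite cell markers 1 lay above the Cre- libraries and 1 below, of the 4 Schwann cell markers 3 lay below and 0 above, and of the 5 fibroblast markers 2 lay above and 1 below. Liver markers such as Alb lay between 0.564 and 0.94 in Cre+ EDL and 1.34 and 1.89 in Cre- EDL at 2.5 days, between 1.06 and 1.23 in Cre+ EDL and 9.04 and 11.1 in Cre- EDL at 8.5 days (3 of 4 called lower), and between 1.06 and 1.61 in Cre+ SOL and 25.8 and 137 in Cre- SOL (4 of 4). In SOL at 2.5 days fast myofiber markers lay between 27102 and 30591 in Cre+ and 39987 and 40722 in Cre-, and macrophage markers between 67.1 and 71.4 and 41.5 and 52.3. The sums of erythroid markers (88.5 to 127 against 189 to 192) and endothelium (338 to 360 against 366 to 413) were also lower in Cre+ SOL on that day, and those of fibroblast markers higher (2345 to 2961 against 2162 to 2239). In SOL at 8.5 days the sums of slow myofiber markers (38931 to 40688 against 43457 to 46958) and erythroid markers (167 to 185 against 192 to 198) were lower and those of endothelium higher (487 to 510 against 350 to 476). In these SOL lists other than liver edgeR called 0 markers, and DESeq2 called 2 of 5 fast myofiber markers lower and 1 of 6 macrophage markers higher at 2.5 days and 0 in the others. The sums of the other lists overlapped between the groups, but among them DESeq2 called 1 of 4 Schwann cell markers higher in Cre+ SOL at 2.5 days. No list had a marker at 0 in these groups, and the part of these markers in the results was not tested.

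A set of 6 members that changed in EDL are shown first by the 250 bases before their transcription start, because the regulators known for mitochondrial genes, NRF1, the ETS factor GABP and YY1, bind close to the start, and c-Myc, which the cassette carries, binds E-boxes. Mrps2 and Mrps30 are the members that rose, and Mrps36, Mrpl41 and Mrpl34 those with the largest mean fall over both EDL comparisons. Mrpl12, which fell by slightly less than Mrpl51 and Mrpl47, is shown in their place for its NRF1 match. The windows are RefSeq sequence of build GRCm38.p6, written 5′ to 3′ on the strand of the gene. They lie at chr2:28467816-28468065 (plus strand, Mrps2), chr13:118387253-118387502 (minus strand, Mrps30), chr13:100744660-100744909 (minus strand, Mrps36), chr2:24975099-24975348 (minus strand, Mrpl41), chr8:71464676-71464925 (plus strand, Mrpl34) and chr11:120484387-120484636 (plus strand, Mrpl12). Capitals mark the letters CCGGAAG of the ETS motif, found in Mrpl34, and those of the NRF1 motif (GCGC, any base, TGCGC), found in Mrpl12, searched on both strands.
Mrps2: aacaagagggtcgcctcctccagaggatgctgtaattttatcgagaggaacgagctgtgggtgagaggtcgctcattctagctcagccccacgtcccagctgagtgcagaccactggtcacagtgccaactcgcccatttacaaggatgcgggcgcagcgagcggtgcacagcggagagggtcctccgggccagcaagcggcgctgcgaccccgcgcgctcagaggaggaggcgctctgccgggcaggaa
Mrps30: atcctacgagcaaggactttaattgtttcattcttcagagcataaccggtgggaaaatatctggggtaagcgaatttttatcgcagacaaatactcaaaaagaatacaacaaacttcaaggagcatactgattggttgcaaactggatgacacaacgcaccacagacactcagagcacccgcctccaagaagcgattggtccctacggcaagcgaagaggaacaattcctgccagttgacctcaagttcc
Mrps36: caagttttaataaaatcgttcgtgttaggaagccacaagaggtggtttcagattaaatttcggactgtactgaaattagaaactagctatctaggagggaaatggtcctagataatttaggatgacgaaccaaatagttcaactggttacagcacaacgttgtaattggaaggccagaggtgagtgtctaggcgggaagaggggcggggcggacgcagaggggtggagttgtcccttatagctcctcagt
Mrpl41: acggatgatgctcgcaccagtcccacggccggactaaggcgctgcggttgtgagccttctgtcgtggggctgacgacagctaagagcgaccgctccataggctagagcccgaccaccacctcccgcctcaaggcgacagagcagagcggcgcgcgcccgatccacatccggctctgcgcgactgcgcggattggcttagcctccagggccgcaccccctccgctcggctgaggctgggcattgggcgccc
Mrpl34: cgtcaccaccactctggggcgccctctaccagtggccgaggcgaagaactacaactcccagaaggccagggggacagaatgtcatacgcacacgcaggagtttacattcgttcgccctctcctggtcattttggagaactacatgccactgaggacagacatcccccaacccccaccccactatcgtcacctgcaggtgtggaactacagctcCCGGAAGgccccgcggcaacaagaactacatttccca
Mrpl12: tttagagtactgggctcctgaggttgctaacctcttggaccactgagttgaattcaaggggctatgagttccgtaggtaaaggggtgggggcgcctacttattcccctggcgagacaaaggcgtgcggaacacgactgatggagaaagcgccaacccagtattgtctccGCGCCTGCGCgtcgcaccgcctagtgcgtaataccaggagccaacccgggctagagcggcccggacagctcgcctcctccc

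In the windows from 250 bases before to 50 bases after the start, which the RefSeq table holds for 69 of the 78 members, the ETS letters stood in 26 (37.7%), the NRF1 letters in 13 (18.8%), the YY1 letters AAGATGGC in 12 (17.4%) and the E-box CACGTG in 5 (7.25%). Over the 27025 genes with such a window the shares were 9.93%, 5.19%, 3.19% and 8.09%, in the same order, and over the 11686 of the genes tested with a window they were higher, at 17.7%, 10.1%, 4.66% and 11.2%. A run of CCGGAAG can share its last letters AAG with the first of AAGATGGC, and no motif contains another. The respiratory genes (65 of 80 with a window) held the NRF1 letters in 27.7% and the ETS letters in 24.6%, and the cytosolic ribosomal protein genes (63 of 83 with a window) held them in 9.52% and 39.7%. Of the members that fell in at least 1 EDL comparison, 12 had a window, and 5 of these held the ETS letters, 2 the NRF1 letters, 1 the YY1 letters and 0 the E-box. The median change at 2.5 days was -0.24 on the log2 scale for the 26 members with the ETS letters and -0.09 for the 43 without, but at 8.5 days it was -0.17 and -0.24. For the 13 members with the NRF1 letters it was 0.01 at 2.5 days and -0.18 at 8.5 days, and for the 56 without it was -0.19 and -0.24. A match is a description of letters and not a site of binding.

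In control muscle the members covered a wide range of levels. Levels between genes are compared as FPKM, which are CPM divided by exon length in kilobases. Over the 4 Cre- EDL libraries of 2.5 and 8.5 days, Mrpl42 was the highest at 308 FPKM, followed by Mrpl12 at 156 and Mrpl33 at 141, which lay next to Mrpl30 at 139. The median member was at 32.7 FPKM and the lowest, Mrps25, at 4.75. In Cre- SOL the median was 39.5 FPKM, with a highest value of 290 and a lowest of 4.99. Mrpl12, which forms the stalk that recruits translation factors and is also known as a partner of the mitochondrial RNA polymerase, was thus among the most abundant, whereas Mrps2, a small subunit protein with a bacterial counterpart, was near the bottom of the order at 9.07 FPKM.

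After 2.5 days of Dox, 2 of the 78 members rose in Cre+ EDL muscles and 8 fell, by the quasi-likelihood test of edgeR, with p-values adjusted after Benjamini and Hochberg over all genes. A gene is said to rise or fall where its adjusted p was below 0.05 and its log2 fold change passed 0.5 in either direction. Over all 15372 genes tested, 13.8% rose and 10.2% fell by the same thresholds, so the share of members that fell was close to that of all genes, and the share that rose was below it. The members that rose were Mrps2 and Mrps30, and those that fell were Mrps36, Mrpl41, Mrpl34, Mrpl51, Mrpl33, Mrps11, Mrpl47 and Mrpl12. Both Cre+ libraries lay below both Cre- libraries for 44 members and above them for 14, against 34.5% and 30.7% of all genes. With no minimum fold, 7 members were higher and 14 lower, against 15.5% and 12.1% of all genes. The median change of the members was -0.18 on the log2 scale, from -0.83 to 0.73, beside a median of -0.05 over all genes, and 53 members were below 0, against 53.4%. It became 0.15 when libraries were scaled by library size alone, which moved the median of all genes to 0.28 and the calls to 11 members higher and 0 lower, against 27.4% and 3.97% of all genes, so that relative to all genes the members' median was -0.13 by either scaling. With 1 library left out, the members' median lay between -0.21 and -0.10 on the log2 scale. The counts of members that rose and that fell changed with the library left out. The shares of all genes in those fits are not given.

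**Figure D1:**
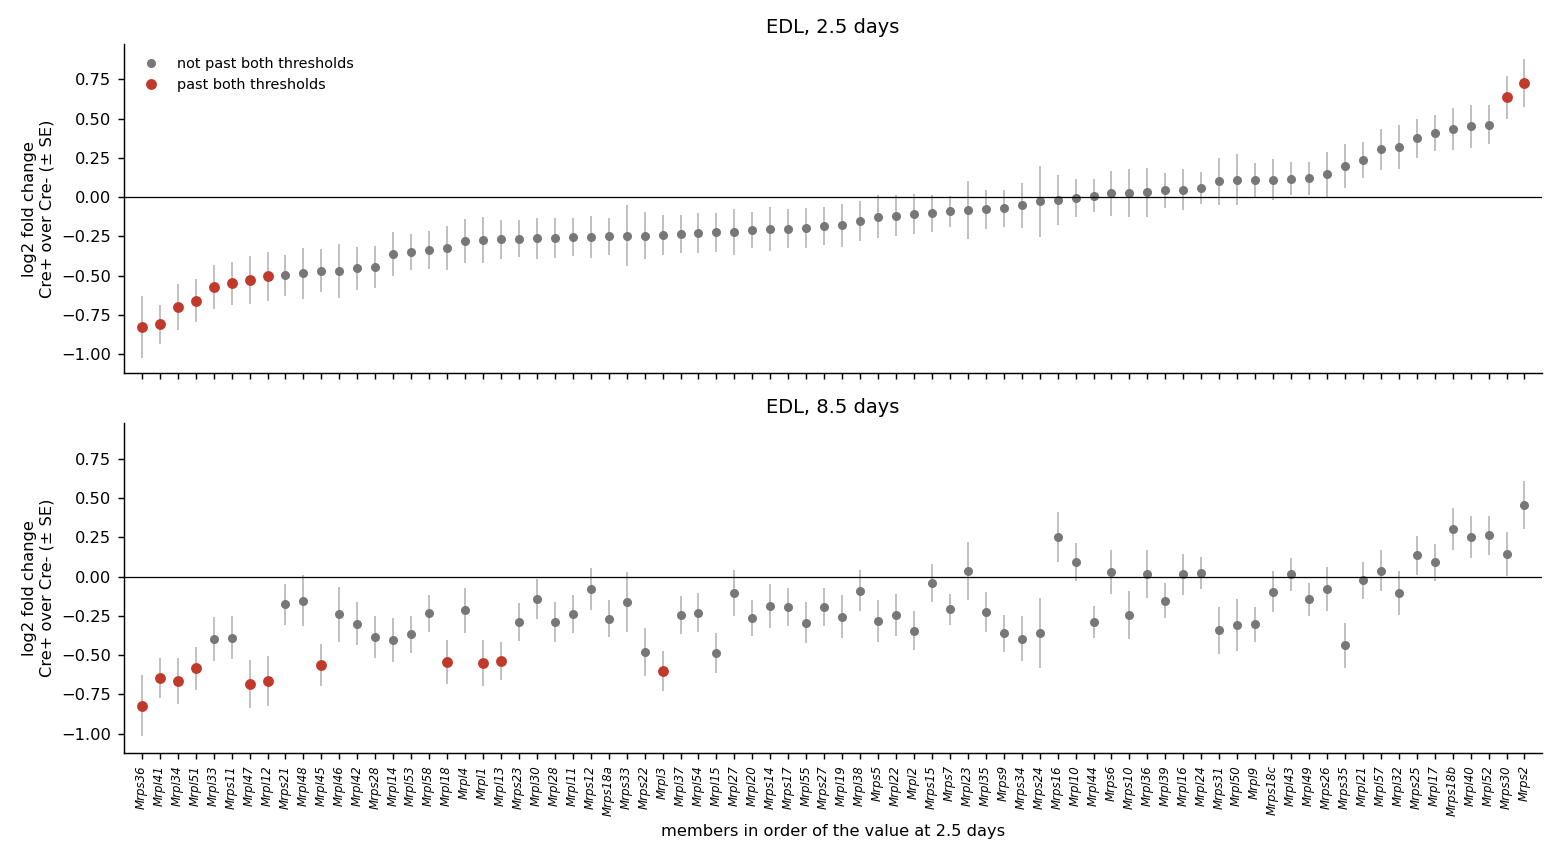
Log2 fold change of each of the 78 members, Cre+ over Cre-, in EDL muscles at 2.5 days (top) and 8.5 days (bottom), with both panels in the order of the values at 2.5 days. Points are edgeR estimates, bars are standard errors, and red points passed both thresholds (2 higher and 8 lower at 2.5 days, 0 higher and 11 lower at 8.5 days); with library size alone as the scaling most points of the top panel lie above 0.

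Mrps2 was at 31.2 and 38.4 normalised CPM in the Cre+ EDL libraries of 2.5 days and at 19 and 23 in the Cre- libraries. Both Cre+ values were above both Cre- values, and the log2 fold change was 0.73 ± 0.15 (SE) with an adjusted p of 0.00353 in edgeR. At 8.5 days the Cre+ libraries were at 27.1 and 28.7 and the Cre- libraries at 18.7 and 21.9, again without overlap, with a log2 fold change of 0.46 that did not pass (adjusted p = 0.0595). In SOL the corresponding changes were 0.10 and 0.16, neither of which passed.

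Mrps30, a protein that carries a small subunit name but sits in the large subunit in structures of the mammalian mitochondrial ribosome, was at 52.8 and 65.2 normalised CPM in Cre+ EDL at 2.5 days and at 35.6 and 40.3 in Cre- EDL. The groups did not overlap, and the log2 fold change was 0.64 ± 0.14 (SE) with an adjusted p of 0.00471 in edgeR. At 8.5 days the Cre+ libraries were at 36 and 35.4 and the Cre- libraries at 29.7 and 34.8, a difference of 0.14 on the log2 scale (adjusted p = 0.541). The rise was thus found at the early time point, but the test of the difference between the days did not pass (-0.49 on the log2 scale, adjusted p = 0.446 in edgeR).

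Mrps36 fell the most by mean change over both EDL comparisons. Its product was named as a ribosomal protein and is now known as a component of the 2-oxoglutarate dehydrogenase complex of the TCA cycle, so it is counted here in neither subunit. It was at 6.94 and 6.47 normalised CPM in Cre+ EDL at 2.5 days against 10.6 and 13.2 in Cre- EDL, and at 7.76 and 8.57 against 11.6 and 17.3 at 8.5 days. The Cre+ libraries lay below the Cre- libraries at both times, and the log2 fold changes were -0.83 ± 0.20 (SE, adjusted p = 0.00779 in edgeR) and -0.82 ± 0.20 (adjusted p = 0.0138).

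Mrpl41, a large subunit protein without a bacterial counterpart, was at 17.3 and 16 normalised CPM in Cre+ EDL at 2.5 days and at 28.1 and 30.2 in Cre- EDL. At 8.5 days the values were 15.0 and 15.2 in Cre+ and 23.1 and 24.1 in Cre-. The 2 libraries of each group were close to each other, and the gap between genotypes gave log2 fold changes of -0.81 ± 0.13 (SE, adjusted p = 0.000593 in edgeR) and -0.64 ± 0.13 (adjusted p = 0.00468). This gene overlaps Dph7 on the other strand. The libraries are labelled as stranded, but whether strand was used in counting is not given in the sources used here, so reads of these 2 genes may not be separated.

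Mrpl34, a small protein of the large subunit with a bacterial counterpart, was at 17.2 and 19.6 normalised CPM in Cre+ EDL and at 28.7 and 31.1 in Cre- EDL at 2.5 days. Its log2 fold change was -0.70 ± 0.15 (SE, adjusted p = 0.00375 in edgeR) and at 8.5 days -0.67 ± 0.15 (adjusted p = 0.00925). Mrpl51, also of the large subunit, was at 82.7 and 76.7 in Cre+ EDL and at 119 and 133 in Cre- EDL, and at 80.2 and 97.8 against 146 and 120.5 at 8.5 days. No Cre+ value of either gene reached a Cre- value of its day. The log2 fold changes of Mrpl51 were -0.66 (adjusted p = 0.00346 in edgeR) and -0.58 (adjusted p = 0.0127).

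Mrpl47, a large subunit protein near the exit of the nascent chain, was at 12 and 14.3 normalised CPM in Cre+ EDL at 2.5 days against 18.7 and 19.2, and at 11.1 and 13.1 against 21.5 and 17.2 at 8.5 days. Its log2 fold changes were -0.53 (adjusted p = 0.0220 in edgeR) and -0.68 (adjusted p = 0.00984). Mrpl12 was at 99.1 and 121 against 155 and 158 at 2.5 days, and at 90.3 and 118 against 184 and 147 at 8.5 days. In both genes the Cre+ libraries lay below the Cre- libraries, and Mrpl12 gave -0.50 (adjusted p = 0.0309 in edgeR) and -0.67 (adjusted p = 0.0134). The value of Mrpl12 at 2.5 days lies just past the fold threshold, and with DESeq2 it was -0.49.

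**Figure D2:**
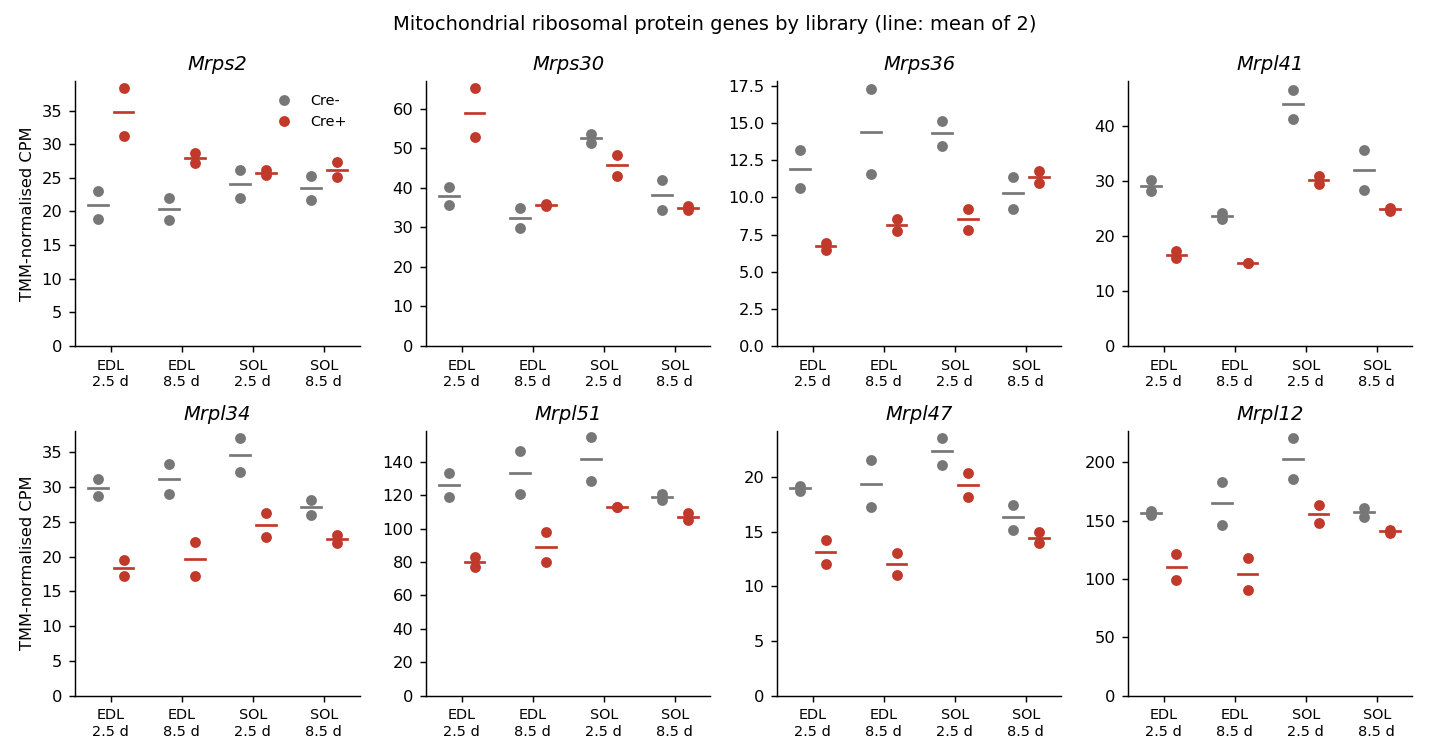
TMM-normalised CPM of the 8 members named for the largest mean change in EDL, in each library of 2.5 and 8.5 days, by muscle (columns of each panel), Cre- in grey and Cre+ in red. Short lines are means of the 2 libraries of a group, and axes start at 0; by this scaling the Cre+ and Cre- points of each gene do not overlap in EDL at either time.

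After 8.5 days, 0 members rose and 11 fell in Cre+ EDL, against 7.63% and 6.5% of all genes tested. By library size alone 1 rose and 1 fell, against 12.7% and 3.53% of all genes. A fit of the EDL libraries alone gave 3 that fell, and the share of all genes in that fit is not given. DESeq2 gave 0 and 11, against 8.38% and 7.75% of all genes, and at an unadjusted p under 0.05, where 29.8% of all genes were, 2 members were higher and 31 lower. Both Cre+ libraries lay below both Cre- libraries for 48 members and above them for 6 (26.8% and 26.6% of all genes), and 62 members were below 0 (51.6%). The 6 members Mrps36, Mrpl41, Mrpl34, Mrpl51, Mrpl47 and Mrpl12 fell at both times. Mrpl45, which anchors the ribosome at the inner membrane, Mrpl18, Mrpl3, Mrpl1 and Mrpl13 were called at 8.5 days and not at 2.5 days, with log2 fold changes from -0.60 (Mrpl3, adjusted p = 0.00733 in edgeR) to -0.54 (Mrpl13, adjusted p = 0.0105) beside -0.47 (Mrpl45) to -0.24 (Mrpl3) at 2.5 days. Mrpl33 and Mrps11 were called at 2.5 days and not at 8.5 days, at -0.57 and -0.55 and then -0.40 and -0.39. The difference between the days was tested and called 0 of the 78 members in edgeR and 0 in DESeq2, with 3 members, and 9.56% of all genes, at an unadjusted p under 0.05 in edgeR. Over all genes edgeR called 0% for this difference, and DESeq2 called 0.273% higher and 0.67% lower.

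With 1 library left out, the members' median at 8.5 days lay between -0.35 and -0.12 on the log2 scale. The count at 8.5 days rested on single libraries, and the share of all genes called without each of them is not given. It was 0 without replicate 1 of Cre+ EDL, 4 without replicate 1 of Cre- EDL and 16 without replicate 2 of Cre+ EDL. The Cre+ libraries of this day differed along the whole family, since 77 of 78 members were higher in replicate 2 than in replicate 1, by a median of 0.22 on the log2 scale, with 52.6% of all genes higher and a Myc level of 182 against 191 normalised CPM. Of the 80 respiratory genes, 78 were also higher in replicate 2, by a median of 0.38. The median change of the members at 8.5 days was -0.24, beside -0.02 for all genes, and with library size alone it was -0.06 beside 0.16 for all genes.

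At 2.5 days the Cre+ EDL libraries differed in another way. Replicate 2 had a Myc level of 205 normalised CPM against 55.8 in replicate 1, and 58 of 78 members were higher in replicate 2, by a median of 0.11 on the log2 scale, with 49.8% of all genes higher. Of the respiratory genes, 31 of 80 were higher in that library, and of the 81 cytosolic ribosomal protein genes tested, 65 were. These are differences between 2 libraries and have no replicates.

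The 2 subunits of the ribosome were compared by counts and medians. Of the 13 members that fell in at least 1 EDL comparison, 11 belong to the large subunit, 1 to the small subunit (Mrps11), and Mrps36 to neither. At 2.5 days 6 of 51 large subunit genes and 1 of 26 small subunit genes fell, with medians of -0.22 and -0.08, and at 8.5 days 10 of 51 and 0 of 26 fell, with medians of -0.24 and -0.19. Over all genes 10.2% fell at 2.5 days and 6.5% at 8.5 days, and the difference between the subunits was not tested. By library size alone 0 members fell at 2.5 days and 1 at 8.5 days, against 3.97% and 3.53% of all genes. The genes that rose were 1 of the large subunit (Mrps30) and 1 of the small (Mrps2). In edgeR 8 small subunit genes were lower and 2 higher at 8.5 days at an unadjusted p under 0.05, where 29.8% of all genes were. Of the large subunit genes 22 were lower and 0 higher by that rule. Both Cre+ libraries lay below both Cre- libraries for 33 of 51 large and 14 of 26 small subunit genes on that day (26.8% of all genes). They lay above them for 3 of each (26.6% of all genes). DESeq2 called 0 small subunit genes on that day. Members whose number is shared with a bacterial ribosomal protein (44) and members with a mitochondrial number (34) had medians of -0.15 and -0.19 at 2.5 days and -0.22 and -0.27 at 8.5 days.

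Mrps18a, Mrps18b and Mrps18c are related genes, of which Mrps18a encodes a protein of the large subunit and the others proteins of the small subunit. Mrps18b was at 23.6 and 30.8 normalised CPM in Cre+ EDL at 2.5 days and at 19.1 and 21.2 in Cre- EDL, a log2 fold change of 0.43 that passed the adjusted p (0.0301 in edgeR) but not the fold threshold, and it was 0.77 and passed both with library size alone. Mrps18a was at 45.6 and 47.1 in Cre+ EDL and at 51.5 and 58.8 in Cre- EDL, with a log2 fold change of -0.25 (adjusted p = 0.133). Mrps18c was at 27.9 and 27.3 against 24.4 and 26.7, a difference of 0.11 (adjusted p = 0.556). None of the 3 passed both thresholds at 8.5 days, when the values were 0.30 for Mrps18b, -0.27 for Mrps18a and -0.10 for Mrps18c. Of the 3 most abundant members, Mrpl12 is given above. Mrpl33, a large subunit protein, was at 49.6 and 46.6 normalised CPM in Cre+ EDL at 2.5 days against 70.8 and 72.1 in Cre- EDL. Mrpl42 was at 156 and 149 in Cre+ EDL against 210 and 207 in Cre- EDL at 2.5 days (log2 fold change -0.45, adjusted p = 0.0263 in edgeR).

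The median change of the members in EDL was nearer to 0 than that of the nuclear genes of the respiratory complexes. Of 80 respiratory genes, 69 fell in Cre+ EDL at 2.5 days and 65 at 8.5 days, with medians of -0.74 and -0.73, and 0 rose, against 10.2% and 6.5% of all genes that fell. With library size alone 20 and 43 fell, against 3.97% and 3.53% of all genes, with medians of -0.41 and -0.56, and 1 rose at 2.5 days. On both days the count of respiratory genes that fell was lower in some fits that left out 1 library. The shares of all genes in those fits are not given. The fall was spread over the complexes, with 31 of 36 genes of complex I, 3 of 4 of complex II, 8 of 9 of complex III, 13 of 14 of complex IV and 14 of 17 of complex V at 2.5 days. The most abundant of them, Atp5b, the catalytic subunit of ATP synthase, was at 3360 and 3202 normalised CPM in Cre+ EDL and at 4779 and 5247 in Cre- EDL, and Cox6a2, the muscle form of a complex IV subunit, at 496 and 441 against 1023 and 1012. Their log2 fold changes were -0.61 and -1.12 (adjusted p = 0.0206 and 0.000625 in edgeR). Ndufs7, a complex I subunit, gave -1.11, and Atp5l, which had only 0.641 to 2.21 normalised CPM in these 4 libraries, gave -1.31. Of the 78 members, 76 had a change above the respiratory median at 2.5 days and 77 at 8.5 days, and no p is attached to this count. The medians over all genes, -0.05 and -0.02, also lay above it. The share of all genes above it is not given, so the count is not read as a trait of the members.

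**Figure D3:**
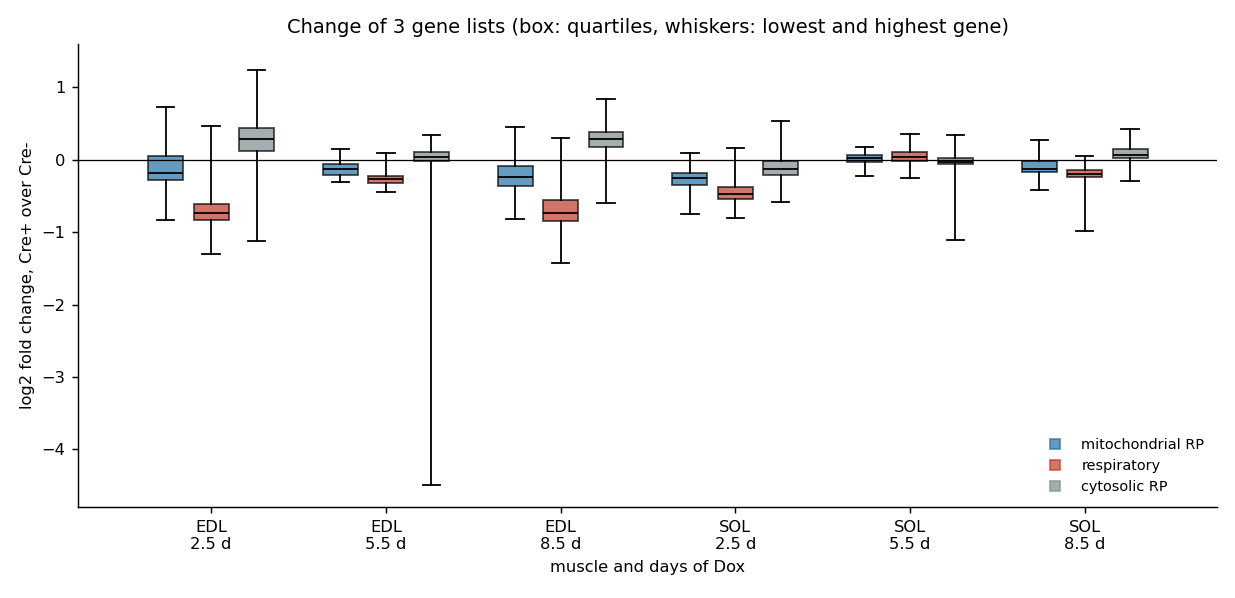
Log2 fold change, Cre+ over Cre-, of the 78 mitochondrial ribosomal protein (RP) genes, the 80 respiratory genes and the 81 cytosolic RP genes tested, for each muscle and time. Boxes span the quartiles with the median as a line, and whiskers reach the lowest and the highest gene; at 2.5 days in EDL the medians are -0.18, -0.74 and 0.29, and by library size alone they are 0.15, -0.41 and 0.61.

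The relation between both gene sets was also taken within each library, where no scaling between libraries enters. The summed CPM of the members was 0.100 ± 0.00306 (SD, n = 4) of that of the respiratory genes in the Cre- EDL libraries of 2.5 and 8.5 days and 0.142 ± 0.00796 (SD, n = 4) in the Cre+ EDL libraries. The Cre- values lay between 0.0968 and 0.104 and the Cre+ values between 0.135 and 0.151, so the groups did not overlap. Within the days, the Cre+ libraries were at 0.137 and 0.151 against 0.0994 and 0.0968 at 2.5 days, and at 0.147 and 0.135 against 0.104 and 0.101 at 8.5 days. In SOL at 2.5 and 8.5 days the Cre+ values lay between 0.101 and 0.11 and the Cre- values between 0.0924 and 0.101. Within each of these 2 days the SOL groups did not overlap either. At 8.5 days, however, the lower Cre+ library (0.103) was close to the higher Cre- library (0.101). At 5.5 days the SOL groups overlapped.

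**Figure D4:**
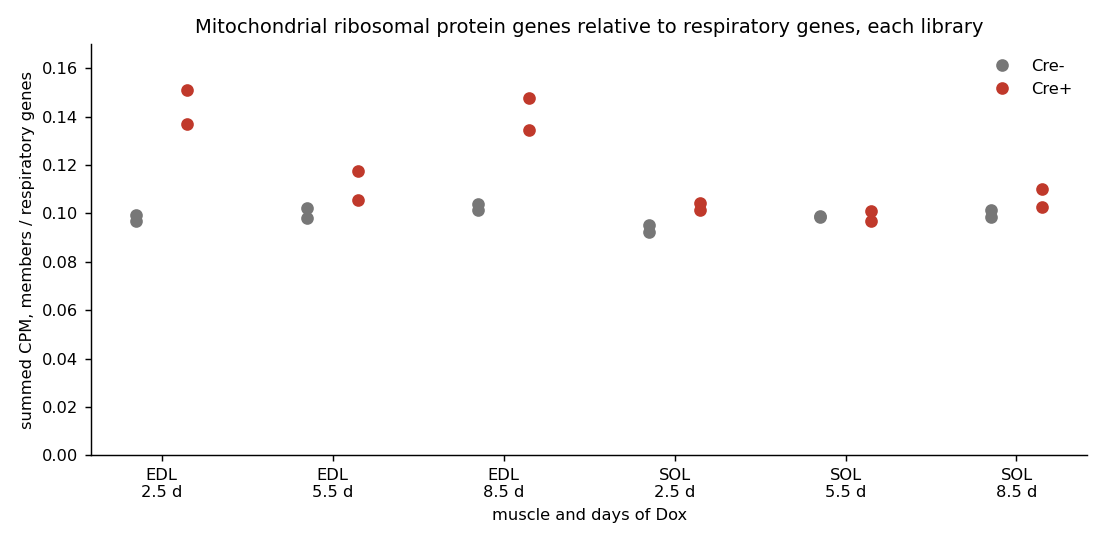
Summed CPM of the 78 members divided by the summed CPM of the 80 respiratory genes in each of the 24 libraries, Cre- in grey and Cre+ in red, by muscle and days of Dox. Each point is 1 library and the axis starts at 0; the 4 Cre+ EDL libraries of 2.5 and 8.5 days lie between 0.135 and 0.151, above every other library.

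Against the cytosolic ribosomal protein genes the relation went the other way. Of the 81 tested, 12 rose and 1 fell in Cre+ EDL at 2.5 days, with a median of 0.29, and 4 rose and 1 fell at 8.5 days, also with a median of 0.29. Over all genes 13.8% and 7.63% rose, so that the shares that rose were near or below those of all genes. By library size alone 52 and 31 of the 81 rose, against 27.4% and 12.7% of all genes. The summed CPM of the members was 0.237 ± 0.0252 (SD, n = 4) of that of the cytosolic ribosomal protein genes in Cre- EDL and 0.171 ± 0.0210 (SD, n = 4) in Cre+ EDL. The Cre+ values, 0.146 to 0.189, lay below the Cre- values, 0.212 to 0.272.

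The other genes of mitochondrial translation were taken from a list of 69, which holds the ribosomal proteins under other names, translation factors, assembly factors and mitochondrial aminoacyl-tRNA synthetases. In Cre+ EDL at 2.5 days 7 rose and 6 fell, with a median of -0.02, and at 8.5 days 2 rose and 4 fell, with a median of -0.15. Over all genes 13.8% rose and 10.2% fell at 2.5 days, and 7.63% and 6.5% at 8.5 days. By library size alone 17 rose and 3 fell at 2.5 days, with a median of 0.32, and 3 rose and 0 fell at 8.5 days, with a median of 0.04, when 27.4% of all genes rose and 3.97% fell at 2.5 days and 12.7% and 3.53% at 8.5 days. Chchd1, a small subunit protein, was at 41.7 and 39.9 normalised CPM in Cre+ EDL against 73.4 and 72.8 in Cre- EDL at 2.5 days, with log2 fold changes of -0.84 (adjusted p = 0.00281 in edgeR) and -0.67 at 8.5 days (adjusted p = 0.0173). Slirp, which stabilises mitochondrial mRNAs, gave -0.64 at 2.5 days (adjusted p = 0.00828) and -0.46 at 8.5 days, where it did not pass. Mrm1, which methylates the rRNA of the large subunit, was at 24 and 35.8 against 11.7 and 14.7 at 2.5 days, and rose by 1.18 (adjusted p = 0.00140) and 0.91 (adjusted p = 0.0119). Tars2, the mitochondrial threonyl-tRNA synthetase, was at 65.8 and 80.8 against 33.1 and 38.3, and rose by 1.04 (adjusted p = 0.000256) and 0.76 (adjusted p = 0.00359). By group, 4 of 27 assembly factors rose and 1 fell at 2.5 days, 3 of 20 synthetases and their partners rose and 2 fell, and 0 of 17 translation factors rose and 2 fell. These shares that rose are at or near the 13.8% of all genes, or below it.

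Of 14 regulators of mitochondrial genes, 1 rose and 2 fell in Cre+ EDL at 2.5 days, against 13.8% and 10.2% of all genes, and 1 rose and 3 fell at 8.5 days, against 7.63% and 6.5%. Ppargc1a and Ppargc1b, coactivators of mitochondrial biogenesis, fell at both EDL time points, and Pprc1, a growth-regulated relative of both, rose at both. These were named after their values were seen. Ppargc1a gave -0.98 (adjusted p = 0.00232 in edgeR) and -1.07 (adjusted p = 0.00300), Ppargc1b -0.64 (adjusted p = 0.0463) and -1.01 (adjusted p = 0.00861), and Pprc1 0.57 (adjusted p = 0.0469) and 0.81 (adjusted p = 0.0152). Esrra, a nuclear receptor that works with the coactivators, fell at 8.5 days (-0.53, adjusted p = 0.0298). Nrf1, Gabpa and Yy1 are in the same list and were not among the genes called.

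In SOL muscles, 0 members passed in edgeR at 2.5 days, when 0.345% of all genes rose and 0.039% fell, and 0 at 8.5 days, when 0.332% rose and 0.299% fell. At 2.5 days 33 members were lower at an unadjusted p under 0.05 and 0 higher, where 13.4% of all genes were under it, and DESeq2 called 4 lower, namely Mrps36, Mrpl41, Mrpl34 and Mrpl14, and 1.17% of all genes higher and 1.22% lower. At 8.5 days 4 were lower at an unadjusted p under 0.05 (6.6% of all genes), and DESeq2 called 0. At 2.5 days both Cre+ libraries were below both Cre- libraries for 61 members and above them for 0, against 22.7% and 25.8% of all genes tested, and at 8.5 days for 41 and 4, against 19.2% and 19.8%. In SOL 75 members were below 0 at 2.5 days and 63 at 8.5 days, against 47% and 51.2% of all genes. The median change was -0.26 at 2.5 days, beside 0.02 over all genes, and with library size alone it was -0.11 beside 0.18. The Cre- SOL libraries differed between the days. The summed normalised CPM of the members was 4318 and 4793 in them at 2.5 days and 3872 and 3705 at 8.5 days. In Cre+ SOL it was 3744 and 3709 at 2.5 days and 3471 and 3517 at 8.5 days. The part of the high Cre- values in the SOL result at 2.5 days was not tested. Mrpl14, a large subunit protein with a bacterial counterpart, had the lowest adjusted p there: it was at 53.9 and 50.1 normalised CPM in Cre+ SOL and at 85.1 and 81.9 in Cre- SOL, a log2 fold change of -0.68 with an adjusted p of 0.0654 in edgeR and 0.000806 in DESeq2. The respiratory genes had a median of -0.48 in SOL at 2.5 days, with 0 of 80 called in edgeR, 70 lower at an unadjusted p under 0.05 and 30 called lower in DESeq2, which called 1.22% of all genes lower. At 8.5 days the medians were -0.12 for the members and -0.19 for the respiratory genes. The summed normalised CPM of the respiratory genes was 45308 and 51860 in Cre- SOL at 2.5 days and 39239 and 36606 at 8.5 days. In Cre+ SOL it was 36941 and 35538 at 2.5 days and 31567 and 34225 at 8.5 days.

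Whether the members responded differently in the muscles was tested by the difference of the changes. At 2.5 days 1 member was called, Mrps30, for which the change in EDL exceeded that in SOL by 0.84 ± 0.20 on the log2 scale (SE, adjusted p = 0.0345 in edgeR). In SOL its Cre+ libraries were at 43.1 and 48.3 normalised CPM and its Cre- libraries at 53.6 and 51.3, so the Cre+ values were the lower ones there and the higher ones in EDL. Over all genes 3.36% were called higher and 0.891% lower for this difference. DESeq2 called 8 members higher, beside 7.16% of all genes, and the edgeR call of Mrps30 was lost in 7 of the 8 fits that left out 1 library (adjusted p between 0.0729 and 0.141) and kept without replicate 1 of Cre+ EDL (0.00930), where 8 members were called. At 8.5 days 0 members were called in edgeR and 0 in DESeq2, with 6 lower at an unadjusted p under 0.05 (11.2% of all genes), and 0.533% of all genes were called higher and 0.0585% lower. The lowest value there was that of Mrps36 at -0.96 (adjusted p = 0.187), which was at 11 and 11.8 in Cre+ SOL against 9.19 and 11.4 in Cre- SOL.

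**Figure D5:**
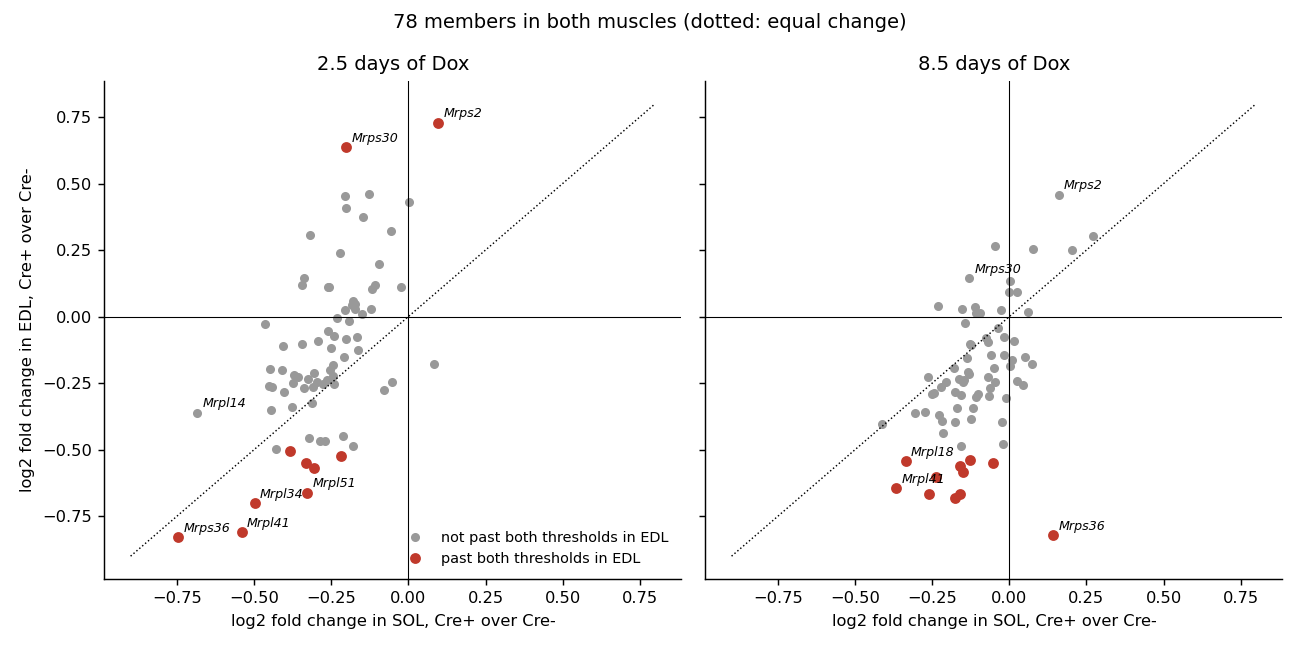
Log2 fold change of each of the 78 members in EDL (vertical) against SOL (horizontal), Cre+ over Cre-, at 2.5 days (left) and 8.5 days (right). Red points passed both thresholds in EDL, and the dotted line marks an equal change. At 2.5 days 75 of 78 members lie left of 0 in SOL, 53 lie below 0 in EDL, and Mrps30 lies farthest above the line. Both counts are for TMM scaling, and by library size alone the medians are -0.11 in SOL and 0.15 in EDL.

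As a description over the 78 members, which share libraries within a comparison, the changes in EDL at 2.5 and 8.5 days had a Pearson r of 0.77, with the same sign in 63. Over all 15372 genes r was 0.73. The changes in EDL and SOL had r of 0.60 at 2.5 days and 0.52 at 8.5 days, beside 0.51 and 0.61 over all genes. Of the 78 members, 50 were below 0 in both EDL comparisons and 42 in all 4 comparisons of 2.5 and 8.5 days. These counts and the 63 of the same sign are for TMM scaling, and the shares of all genes are not given. By library size alone the members' median in EDL at 2.5 days was 0.15.

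At 5.5 days, 0 members passed in edgeR in EDL, where 0.258% of all genes rose and 0.0452% fell, and 0 in SOL, where 0% did, and DESeq2 called 0 in each. In EDL 4 members were lower at an unadjusted p under 0.05 (8.44% of all genes), both Cre+ libraries lay below both Cre- libraries for 39 members and above them for 1 (21.1% and 16.3%), the median change was -0.13, and 70 of 78 members were below 0, beside 51.3% of all genes. In these libraries the sums of fast myofiber markers were lower in Cre+ EDL (125311 to 129048 normalised CPM against 140075 to 151076), and those of erythroid markers (491 to 877 against 151 to 449) and satellite cell markers (18.9 to 20.1 against 17.1 to 17.5) higher, with 0 called by edgeR or DESeq2, and their part in the result was not tested. With library size alone the median was 0.02 beside 0.13 over all genes. Mrpl41 was at 20.0 and 19.0 normalised CPM in Cre+ EDL and at 20.0 and 21.8 in Cre- EDL, where the first value of each group was nearly the same. Mrps2 was at 18.7 in the Cre+ library with the lower Myc level and at 23.2 in the other, against 19.2 and 20.5. The ratio of the members to the respiratory genes was 0.105 in the Cre+ library with the lower Myc level and 0.118 in the other, against 0.0980 and 0.102 in Cre- EDL. In SOL, where the sums of Schwann cell markers were higher in Cre+ (101 to 124 against 38.2 to 62), the median change of the members was 0.03, 29 members were below 0 (48.7% of all genes) and 0 had an unadjusted p under 0.05 (3.86%). The ratio of the members to the respiratory genes overlapped there, at 0.101 and 0.0969 in Cre+ SOL and 0.0985 and 0.0989 in Cre- SOL.

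In Cre- mice the members were compared between the muscles over the 4 libraries of 2.5 and 8.5 days of each. Of the 78, 0 were higher in EDL and 6 lower, against 10.8% and 11.1% of all genes. By library size alone 0 were higher and 11 lower, against 8.18% and 13.8% of all genes, and 8 respiratory genes were lower. The 6 were Mrpl14, Mrps9, Mrps35, Mrps18a, Mrpl41 and Mrpl28, with differences from -0.80 to -0.51 on the log2 scale. Mrpl14 was at 45.5, 43.1, 48.1 and 37.7 normalised CPM in EDL and at 85.1, 81.9, 72.1 and 66.8 in SOL, a difference of -0.80 ± 0.10 (SE, adjusted p = 5.18e-05 in edgeR). Mrps9, a small subunit protein with a bacterial counterpart, was at 43.0, 44.0, 43.7 and 42.7 in EDL and at 71.7, 78, 64.3 and 57.0 in SOL (-0.64, adjusted p = 7.51e-05), and Mrps35, a small subunit protein without one, at 22.7, 26.3, 26.2 and 28.4 against 38.7, 41.1, 37.8 and 36.4 (-0.57, adjusted p = 0.000845). In none of these 3 genes did the muscles overlap. The median over the members was -0.12, as it was -0.13 over the respiratory genes, of which 2 of 80 were called lower in EDL, and the median over all genes was 0.01. With 1 library left out, the members' median lay between -0.15 and -0.08. The count of 6 changed with the library left out, and the shares of all genes in those fits are not given.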

How the data were processed

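Libraries were poly(A)-selected, stranded and single-end per the labels. Per the study's methods and the submitters' processing notes, reads were checked with FastQC 0.11.2, aligned to mm10 with STAR 2.5.3a, and counted over RefSeq exons with HOMER, keeping uniquely aligned reads. The deposited values are raw counts per gene, not normalised by the authors. Reads shared by close copies are thereby lost, and whether strand was used in counting is not given in the sources used here.

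Counts of 16 libraries (2.5 and 8.5 days) were fitted in edgeR 4.0.16 (R 4.3.3, limma 3.58.1) with 1 mean per group, TMM scaling and filterByExpr at a minimum count of 10. All 24 libraries were fitted for 5.5 days, where OSKM was uneven between the Cre+ EDL libraries and low in the Cre+ SOL libraries. The quasi-likelihood test was used with Benjamini-Hochberg adjustment over all genes tested, and genes were called at an adjusted p below 0.05 where the log2 fold change passed 0.5 in either direction. The fit had 8 residual degrees of freedom and a biological coefficient of variation of 0.174. It was tested on simulated data, but no outcome is given here, so this adds nothing to the results. With 2 libraries against 2, an exact permutation test of a single value cannot go below a two-sided p of 0.333. Normalised CPM are TMM-scaled. Sums and ratios carry no p.

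EDL and SOL libraries of the same number deviated together (correlations of 0.173 to 0.445 in 6 of 6 pairs), and Cre+ and Cre- libraries of the same number did not (-0.169 to 0.0578). These numbers were therefore taken to pair the muscles in the fits with a block. The labels do not say whether such EDL and SOL libraries come from the same mouse. The main fit, which gave the tests between muscles above, used no pairing. Alternatives were DESeq2 1.42.0, other scalings, filters, thresholds and sets of libraries, replicate blocks and leaving out each library. Members named with values were those with the 6 largest mean rises and falls in EDL among called members, the 3 with the largest called difference between muscles in Cre- mice, the 3 most abundant, the Mrps18 genes and those called for a difference between muscles or days; any other member is named with its values known. The members and lists were chosen with earlier results of these data known. mRNAs encoded in mitochondrial DNA were looked for (13) and 0 were found in the count table.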

Additional observations from a re-analysis of the deposited data

Results flagged for a closer look

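The response of Mrps30 differed between the muscles at 2.5 days by the test of that difference: the log2 fold change, Cre+ over Cre-, was 0.64 in EDL and -0.20 in SOL, a difference of 0.84 ± 0.20 (SE, adjusted p = 0.0345 in edgeR's quasi-likelihood test). With 2 libraries per group, the call was lost in 7 of 8 fits that left out 1 library. At 8.5 days the difference was 0.28 (adjusted p = 0.667).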

How the results depend on the processing

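No called value changed sign under an alternative, but the members' median in EDL at 2.5 days went from -0.18 to 0.15 by library size alone. By library size alone, members higher and lower were 11 and 0 in EDL at 2.5 days, 1 and 1 at 8.5 days, 6 higher for the difference between muscles at 2.5 days (5.99% of all genes), and 11 lower between muscles in Cre- mice; respiratory genes were 1 higher and 20 lower, then 43 lower, and 8 lower between muscles. With no minimum fold, members were 7 higher and 14 lower in EDL at 2.5 days, against 15.5% and 12.1% of all genes. Between muscles in Cre- mice, 22 members and 16 respiratory genes were lower by that rule, and the share of all genes is not given. At a log2 fold change over 1, 0 members were called in EDL at either time, for the difference between muscles at 2.5 days or between muscles, and 3 respiratory genes fell in EDL at 2.5 days, 3 at 8.5 days and 0 between muscles. Fitting 1 muscle gave 3 members and 43 respiratory genes lower in EDL at 8.5 days and 1 member lower in SOL at 2.5 days. The shares of all genes in the fits of 1 muscle are not given. In SOL at 2.5 days DESeq2 called 4 members and 30 respiratory genes lower, against 1.22% of all genes. With all 24 libraries 2 and 11 were lower, and with no filter 1 member was, and the shares of all genes are not given. For the difference between muscles at 2.5 days, DESeq2 called 8 members higher, against 7.16% of all genes. Members higher were 2 with RLE size factors, 2 with at least 10 counts in every library and 5 with all 24 libraries. The shares of all genes in these fits are not given. For the difference at 8.5 days DESeq2 called 8 respiratory genes lower (0.8% of all genes). The causes were not tested. In this section, a count without a share of all genes beside it is not read as a result about the members.

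Leaving out 1 library gave 1 to 6 members higher and 3 to 8 lower in EDL at 2.5 days, with 0 to 1 respiratory genes higher and 45 to 66 lower. At 8.5 days it gave 0 to 1 members higher, 0 to 16 lower and 17 to 68 respiratory genes lower. The difference between muscles at 2.5 days gave 0 to 8 members higher, that at 8.5 days 0 to 1 respiratory genes lower, the difference between days 0 to 1 members lower, and EDL against SOL in Cre- mice 3 to 7 members and 2 to 3 respiratory genes lower. An arm left with 1 library is assumed to vary like the other groups. The shares of all genes are not given for fits that left out 1 library, so no such count is read as a result about the members.

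With the replicate number as a block, within a day and genotype for comparisons of the paired muscles, Mrps30 gave 0.83 and was still called, 6 members were lower in EDL than in SOL, and 1 respiratory gene was called higher for the difference at 2.5 days. With the number as a block within a day, where numbers do not pair Cre+ with Cre-, 8 members fell in EDL at 2.5 days and 11 at 8.5 days, and 62 respiratory genes fell at 8.5 days.

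Every member had at least 205 counts in every library.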
